A study of Saccharomyces cerevisiae with 12 samples.

Results

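The small nucleolar and small nuclear RNA genes of the budding yeast Saccharomyces cerevisiae carry names that start with snR. Of 7127 genes in the count tables, 81 carry such a name, and the 73 with at least 60 fragments summed over the 12 libraries are described here. They comprise 42 of 47 C/D box genes, 29 of 29 H/ACA box genes and 2 of 5 spliceosomal genes. By position, 52 stand alone, 8 lie inside an intron of a protein-coding host gene, and 13 belong to 5 runs in which neighbouring snR genes on the same strand lie within 500 bases of each other. The classes were assigned by gene name from general knowledge, and the positions come from the coordinates in the files.

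RNA sequencing was done on BY4741 cells of the S288C background, grown in YPD to mid-log phase without treatment, in 4 groups of 3 libraries. The genotypes are labelled WT H2AZ and H2AZ4KR for the histone variant H2A.Z, and WTIno80 and Ino80K929R for the chromatin remodeller Ino80. Each mutant is compared with the wild type of its own table, and the labels give the alleles by name only. The libraries hold 17253140 to 20164258 counted fragments. Fragments of LEU2, a common marker gene, numbered 0 in each WT H2AZ library and 2022 to 3172 in each of the other 9, so LEU2 goes with the H2AZ4KR allele in its table. The gene of H2A.Z, HTZ1, had 1646 to 1810 fragments in WT H2AZ and 6192 to 7989 in H2AZ4KR. INO80 had 2184 to 3273 fragments in WTIno80 and 21071 to 27323 in Ino80K929R. Both mutated genes were thus at a higher level in the mutant (log2 fold changes of 2.15 and 2.95, adjusted p = 1.1e-05 and 0.00052, edgeR), and a share of any difference that goes with LEU2 or with the amount of the mutant gene's RNA cannot be told apart from the allele.

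Most C/D box RNAs guide the methylation of ribose in ribosomal RNA through the proteins Nop1, Nop56, Nop58 and Snu13. Most H/ACA box RNAs guide the conversion of uridine to pseudouridine through Cbf5, Nhp2, Nop10 and Gar1. A few act instead in cutting the ribosomal RNA precursor, and the spliceosomal RNAs form the core of the splicing machinery. The RNAs themselves mostly lack a poly(A) tail. Whether the libraries were selected for poly(A) RNA or depleted of ribosomal RNA is not given in the sources used here, so mature RNA and longer precursors cannot be told apart in these counts. In an intron, the same holds for the snR RNA and its unspliced host transcript.

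The sequences below are those of 7 of the 9 genes that passed the test in H2AZ4KR, as the RefSeq R64 genome gives them, whose coordinates match those of the sacCer3 files for all 81 snR genes. They are shown as examples of the called genes, and the called genes snR30 and snR82 are not among them. Classes follow the gene names, not the letters found. Capitals mark the C box TGATGA in the first 30 bases and the D box CTGA in the last 20 bases of a C/D gene, or ACA within the last 8 bases of an H/ACA gene. The C/D gene snR128 lies at chrX:139566-139691 on the minus strand, snR63 at chrIV:323217-323471 (minus), snR87 at chrXI:431030-431138 (minus) and snR41 at chrXVI:719148-719242 (minus). The H/ACA gene snR9 lies at chrXV:407948-408134 (minus), snR80 at chrV:52150-52320 (minus) and snR44 at chrXII:856710-856920 (plus).
snR128: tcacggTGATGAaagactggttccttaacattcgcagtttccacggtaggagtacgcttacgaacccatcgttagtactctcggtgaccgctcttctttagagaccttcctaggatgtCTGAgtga
snR63: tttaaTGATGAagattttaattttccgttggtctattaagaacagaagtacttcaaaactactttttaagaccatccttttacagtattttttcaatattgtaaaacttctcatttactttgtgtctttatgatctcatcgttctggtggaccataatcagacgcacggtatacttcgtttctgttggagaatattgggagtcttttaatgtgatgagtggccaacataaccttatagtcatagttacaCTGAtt
snR87: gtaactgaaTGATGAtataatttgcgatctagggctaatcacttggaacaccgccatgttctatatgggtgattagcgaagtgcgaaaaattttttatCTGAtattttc
snR41: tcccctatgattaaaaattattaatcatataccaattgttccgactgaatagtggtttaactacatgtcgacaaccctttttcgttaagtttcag
snR9: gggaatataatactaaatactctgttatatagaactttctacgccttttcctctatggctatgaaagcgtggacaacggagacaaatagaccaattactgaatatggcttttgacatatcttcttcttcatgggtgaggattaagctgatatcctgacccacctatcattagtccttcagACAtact
snR80: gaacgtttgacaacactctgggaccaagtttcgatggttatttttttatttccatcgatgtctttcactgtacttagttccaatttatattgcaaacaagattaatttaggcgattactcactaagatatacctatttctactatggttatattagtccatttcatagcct
snR44: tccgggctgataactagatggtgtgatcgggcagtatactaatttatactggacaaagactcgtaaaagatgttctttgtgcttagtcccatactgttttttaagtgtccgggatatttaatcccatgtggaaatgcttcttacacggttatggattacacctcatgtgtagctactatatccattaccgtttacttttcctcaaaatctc
These letters were found in both windows for 33 of 42 C/D members, and ACA was found in its window for 17 of 29 H/ACA members. For snR41, snR80 and snR44 no match lay in the windows, which says only that these letters do not stand there in the annotated gene.

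The genes were lowly counted. In all 12 libraries together, 68 of 73 members had at least 1 fragment in every library. The median count of a member per library was 41 in WT H2AZ, 48 in H2AZ4KR, 88 in WTIno80 and 62 in Ino80K929R. Members are short, with a median length of 161 bases (78 to 1004) against 1011 for all genes. The 5 spliceosomal genes show what the counts can and cannot see. U4 RNA (snR14) and U1 RNA (snR19) were members, whereas the U6 gene snR6 had 30 fragments over 12 libraries. The long and short U5 genes, snR7-L and snR7-S, had 2 and 0. These U5 genes share 179 bases, and a fragment over both is assigned to neither. U2 RNA is listed under the name LSR1 and is no member, with 94 to 118 fragments in WT H2AZ, 66 to 116 in H2AZ4KR, 320 to 626 in WTIno80 and 276 to 339 in Ino80K929R. The 5 C/D genes below the limit were snR73 with 25 fragments, snR53 with 34, snR58 with 38, snR72 with 52 and snR74 with 59. Just inside it were snR52 with 77 and snR60 with 91.

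Summed levels were lowest in the H2AZ table and highest in WTIno80. Summed over the 73 members, snR RNA made up 459, 483 and 471 CPM, fragments scaled to a library of 1000000, in the 3 WT H2AZ libraries and 528, 474 and 592 CPM in H2AZ4KR, and these groups overlapped. In WTIno80 the sums were 1702, 1423 and 1659 CPM and in Ino80K929R 1008, 987 and 879 CPM, and these groups did not overlap. The means were 471 ± 12.4 CPM, 531 ± 59.1 CPM, 1595 ± 150 CPM and 958 ± 69.1 CPM (SD, n = 3 each). The H/ACA class held most of this RNA in every group, with 326 ± 5.26 CPM in WT H2AZ, 381 ± 44.5 in H2AZ4KR, 1239 ± 127 in WTIno80 and 723 ± 63.6 in Ino80K929R (SD, n = 3). The C/D class held 139 ± 5.65, 144 ± 14.2, 337 ± 47.0 and 223 ± 8.92 CPM in the same order. In a bulk sample, fewer cells with an RNA and less of it per cell cannot be told apart.

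**Figure D1:**
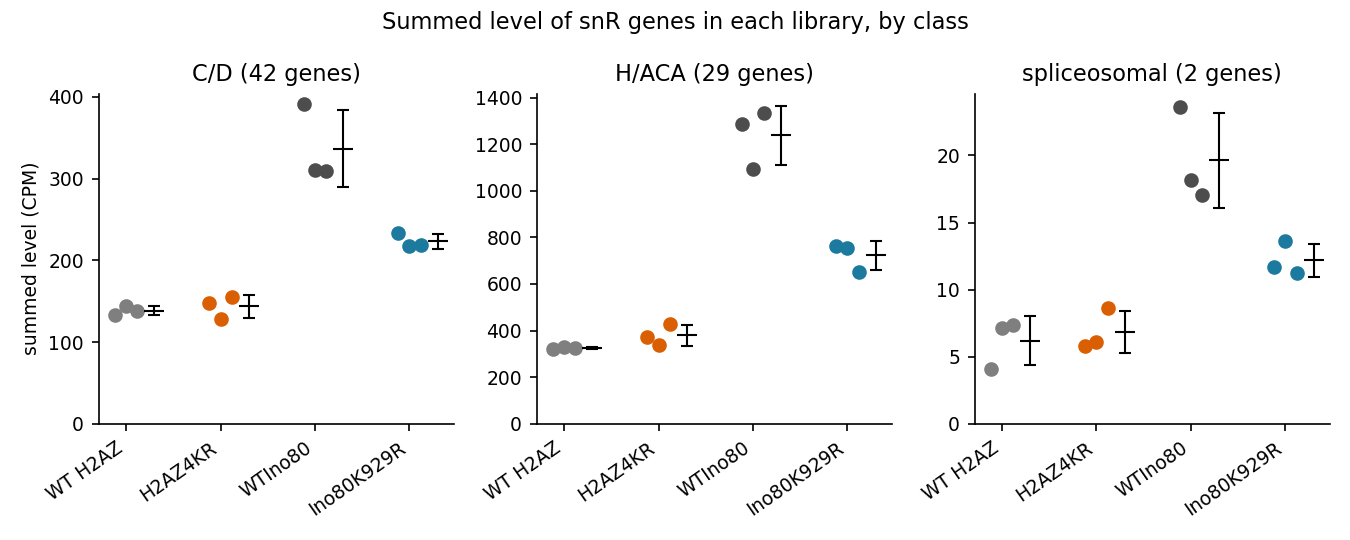
Summed level (CPM, y axis) of the C/D, H/ACA and spliceosomal snR genes in each of the 12 libraries (points) by group (x axis), with the mean and SD of 3 libraries (bars). In the C/D and H/ACA classes the WTIno80 libraries are the highest and the Ino80K929R libraries the next, above all 6 libraries of the H2AZ table.

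A pair of long H/ACA RNAs held a sizeable share of the sums, larger in the Ino80 table. They are snR86, a guide for the large-subunit rRNA, and snR30, which is needed for cutting the precursor of the small-subunit rRNA. They took 27.4% ± 1.93 of all snR fragments in WT H2AZ, 28.6% ± 1.52 in H2AZ4KR, 53.2% ± 4.49 in WTIno80 and 50.5% ± 2.85 in Ino80K929R (SD, n = 3). On a scale per length (CPM per kb), the order of genes differed. The highest mean in WT H2AZ was that of snR41, a C/D guide for the small-subunit rRNA, at 237 CPM per kb, followed by snR33 at 146. In H2AZ4KR snR33 led with 192 CPM per kb, snR44 followed with 170 and snR41 with 134. In WTIno80 snR30 led with 575 and snR86 followed with 499 CPM per kb, while in Ino80K929R snR86 had 319 and snR30 271. The median over members was 17.6 CPM per kb in WT H2AZ, 21.7 in H2AZ4KR, 36.3 in WTIno80 and 22.8 in Ino80K929R, against 34.8, 30.4, 32.8 and 34.4 over all genes.

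In the cells with H2AZ4KR, 8 of the 67 members tested rose and 1 fell against WT H2AZ, and the other 58 did not pass the test. A gene is called when edgeR's quasi-likelihood test gives a Benjamini-Hochberg adjusted p under 0.05 and a fold change over 1.5, the limits the series states. The 9 called genes are 13.4% of the members tested, beside 12.1% of all 6106 genes tested, so the share is near the background. In the higher direction the members' 8 stand beside 4.78% of all genes, and in the lower direction their 1 stands beside 7.32%. The median log2 fold change of members was 0.31 against -0.01 over all genes, and 47 of 67 were above 0 against 49.1% of all genes. On the CPM scale with edgeR's TMM library factors, the 3 libraries of H2AZ4KR lay wholly above those of WT H2AZ for 15 members (18.9% of all genes) and wholly below for 3 (22% of all genes). By class, 5 of 28 H/ACA genes rose, and among 37 C/D genes 3 rose and 1 fell. Neither spliceosomal member was called. Of 307 tested genes of up to 300 bases that are no members, 31 rose and 19 fell, with a median log2 fold change of 0.11. Of 2935 above 1200 bases, 73 rose and 229 fell, with a median of -0.04. With a correction for the trend of each library with gene length, 5 members rose and 1 fell. Their median was then 0.21 against 0.03 over all genes. The part of gene length in the members' rise was not tested. The labels do not say whether replicates were separate cultures, so every p-value here measures the spread between these samples, which may be technical.

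Among the genes of rRNA precursor cutting, snR30 had 554, 476 and 586 fragments in WT H2AZ and 982, 742 and 988 in H2AZ4KR. All 3 mutant libraries were higher, and snR30 rose 1.84-fold (log2 fold change 0.88 ± 0.16 SE, adjusted p = 0.00367). snR128, the U14 RNA, is a C/D RNA that acts in precursor cutting and as a guide. It had 49, 43 and 40 fragments in WT H2AZ and 83, 80 and 81 in H2AZ4KR. The groups did not overlap, and snR128 rose 2.04-fold (log2 1.03 ± 0.25 SE, adjusted p = 0.0151). Its upstream partner in the same run, snR190, had 3, 23 and 15 fragments in WT H2AZ and 7, 7 and 6 in H2AZ4KR, and did not pass the filter on low counts. snR10, an H/ACA RNA that also takes part in precursor cutting, had 7, 14 and 7 fragments in WT H2AZ and 14, 31 and 21 in H2AZ4KR. The lowest mutant library equals the highest wild-type library in fragments, and the log2 fold change of 1.40 ± 0.49 SE had an adjusted p of 0.0634 and was not called. Of its 245 bases, 216 overlap the gene YGL088W, and fragments over both genes were counted for neither. The U3 RNA, the C/D RNA essential for the small subunit, is encoded by snR17a and snR17b, the only pair of members that shares a stretch of 40 bases. Their log2 fold changes were 0.69 ± 0.42 SE and -0.21 ± 0.33 SE (adjusted p = 0.254 and 0.675), and reads that map to both copies are missing from both counts.

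The H/ACA guides that rose were snR44, snR80, snR9 and snR82. snR44, in an intron of RPS22B, had 440, 430 and 314 fragments in WT H2AZ and 693, 567 and 675 in H2AZ4KR. Every mutant library was higher, and it rose 1.81-fold (log2 0.86 ± 0.14 SE, adjusted p = 0.00263). snR80 had 13, 10 and 9 fragments in WT H2AZ and 27, 28 and 43 in H2AZ4KR. Its groups did not overlap, and its 3.37-fold rise (log2 1.75 ± 0.41 SE, adjusted p = 0.0124) was the largest among the called members. The ratio of its 98 to 32 fragments, scaled by library totals, was 3.07, with an exact 95% interval of 2.04 to 4.73 that covers counting error only. snR9 had 110, 115 and 82 fragments in WT H2AZ and 173, 140 and 125 in H2AZ4KR (log2 0.66 ± 0.21 SE, adjusted p = 0.0436). snR82 had 137, 127 and 130 in WT H2AZ and 151, 182 and 262 in H2AZ4KR (log2 0.75 ± 0.24 SE, adjusted p = 0.0499). For both, the groups stood apart on the CPM scale with TMM factors, and the adjusted p lay close to the limit. On CPM without these factors, the lowest H2AZ4KR library of snR82 barely exceeded the highest WT H2AZ library. A further H/ACA guide, snR33, passed the limit on adjusted p (0.0135) but at 0.54 ± 0.13 SE on the log2 scale not the fold limit.

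The called C/D guides were snR63, snR87 and snR41. snR63, a guide for the large-subunit rRNA, had 360, 362 and 346 fragments in WT H2AZ and 744, 415 and 591 in H2AZ4KR. The mutant libraries were all higher and spread more widely, and snR63 rose 1.80-fold (log2 0.85 ± 0.17 SE, adjusted p = 0.007). snR87, a guide for the small-subunit rRNA, had 30, 29 and 36 fragments in WT H2AZ and 62, 43 and 61 in H2AZ4KR (log2 0.94 ± 0.30 SE, adjusted p = 0.0482). snR41 was the one called member that fell, with 381, 466 and 371 fragments in WT H2AZ and 271, 216 and 201 in H2AZ4KR. All mutant libraries were lower, and it fell 1.60-fold (log2 -0.68 ± 0.14 SE, adjusted p = 0.00781). In the same run, snR70 and snR51 follow snR41 and neither was called. Beyond the called genes, the C/D guide snR71 had 1, 12 and 12 fragments in WT H2AZ and 18, 29 and 23 in H2AZ4KR, which is 1.63 ± 0.60 SE on the log2 scale with an adjusted p of 0.0727. At the low end, snR64 stood at -0.67 ± 0.51 SE and snR81 at -0.49 ± 0.37 SE, both with an adjusted p of 0.361. With each library left out in turn, 4 of the 9 calls held in all 6 fits, those of snR30, snR44, snR63 and snR41. snR80 lost its call without WT H2AZ replicate 3 (adjusted p = 0.0543) or H2AZ4KR replicate 3 (0.0554), and snR128 without WT H2AZ replicate 2 (0.0584) or 3 (0.0586). snR9 and snR87 lost theirs in every such fit (adjusted p 0.0507 to 0.150 and 0.0542 to 0.151), and snR82 in every one but that without H2AZ4KR replicate 1 (up to 0.190). In 1 edgeR fit of all 12 libraries snR41 was not called (adjusted p = 0.0872). snR9, snR82 and snR87 were not called there either, nor under total counts or with a correction for gene length.

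**Figure D2:**
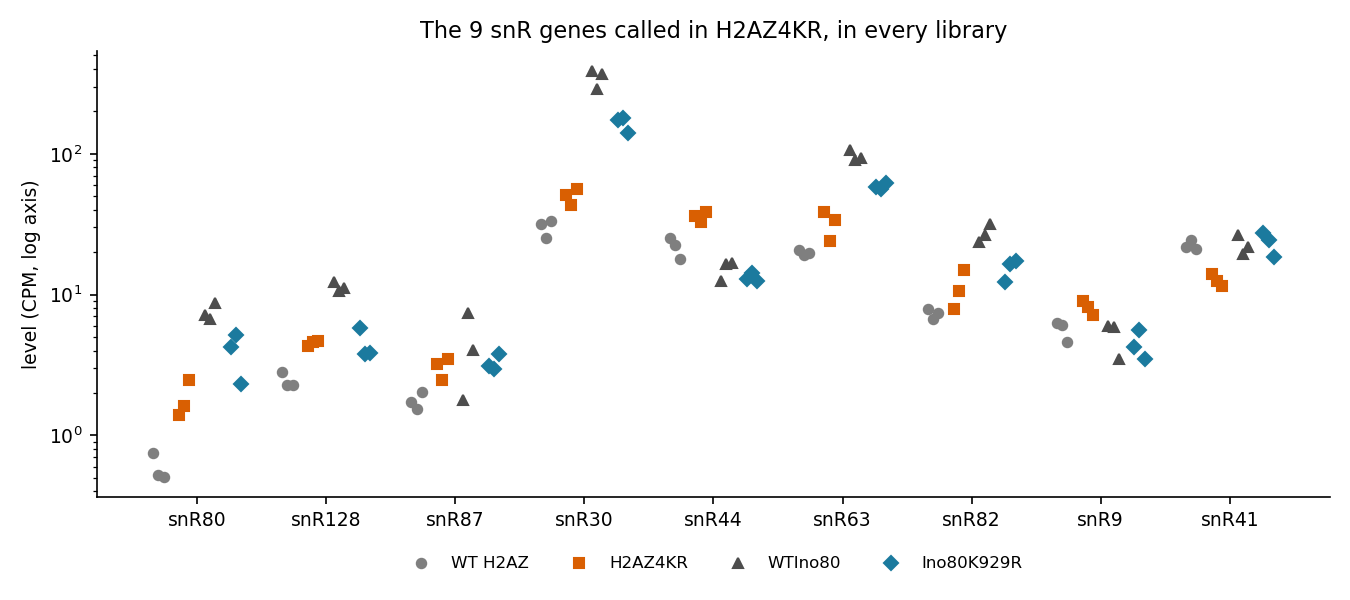
Level (CPM, log axis) of the 9 snR genes called in H2AZ4KR (x axis) in each of the 12 libraries (points, coloured by group). For 8 genes the 3 H2AZ4KR points lie above the 3 WT H2AZ points, for snR82 narrowly, and for snR41 below them, while snR80, snR128, snR30, snR63 and snR82 reach higher levels in WTIno80 than in any library of the H2AZ table.

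Of the 8 host genes of intron-encoded members, 6 rose in H2AZ4KR, namely RPL7A and RPL7B (large-subunit ribosomal proteins), ASC1 (a small-subunit ribosomal protein), EFB1 (a translation elongation factor), IMD4 (an enzyme of GTP synthesis) and NOG2 (a factor of large-subunit assembly). Their log2 fold changes ran from 0.71 for NOG2 and ASC1 to 0.86 for IMD4 (adjusted p 0.00181 to 0.0112, edgeR). Of the 7 intron members tested, only snR44 was called, and its host RPS22B stood at 0.04 (adjusted p = 0.855). snR54 in IMD4 had a log2 fold change of 1.02, snR24 in ASC1 of 0.93 and snR39 in RPL7A of 0.67, none of them called. For snR191 in NOG2 the value was 0.27, for snR38 in TEF4, which encodes a translation elongation factor, 0.44 and for snR18 in EFB1 -0.25, with host values of 0.71, 0.42 and 0.74. snR59 in RPL7B had 18 fragments in WT H2AZ and 33 in H2AZ4KR and was not tested. Per length, the called host genes stood above the snR genes in their introns, by widely different amounts. In WT H2AZ the snR level ran from 0.709% of its host's for snR24 in ASC1 to 20.9% for snR191 in NOG2. EFB1 had a mean of 1650 CPM per kb in WT H2AZ and snR18 had 14.9, or 0.902% of it. For snR44 the level per length was 17.4% of its host's in WT H2AZ, 30.7% in H2AZ4KR, 17.1% in WTIno80 and 12.2% in Ino80K929R. No test of the difference between a snR gene and its host was run.

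**Figure D3:**
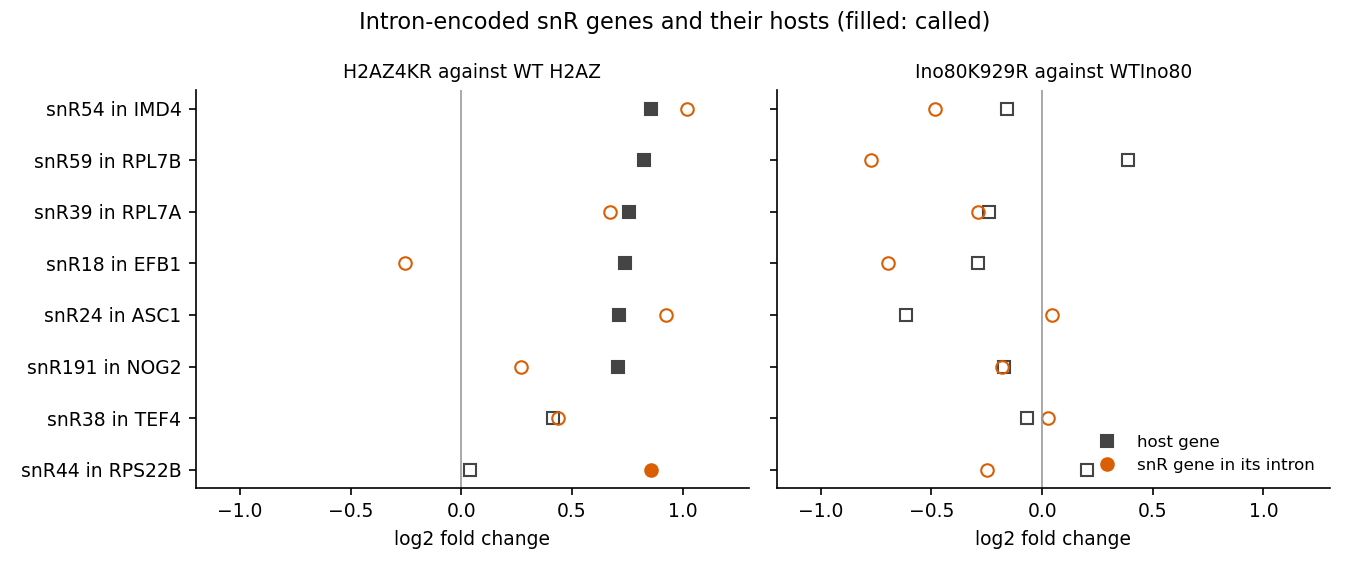
Log2 fold change (x axis) of 8 intron-encoded snR genes (circles) and their host genes (squares) in H2AZ4KR (left) and Ino80K929R (right), with called genes filled. On the left 6 hosts and 1 snR gene are called, snR59 has no value because it was not tested, and on the right no gene is called.

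The proteins that bind these RNAs were looked at as lists. Of the 4 core proteins of H/ACA particles, 3 rose in H2AZ4KR, NHP2 (0.59), NOP10 (0.70) and GAR1 (0.60), and CBF5 was under the fold limit at 0.51 (adjusted p 0.00414 to 0.0138, edgeR). Of the 4 core proteins of C/D particles none was called; NOP56 and SNU13 had log2 fold changes of 0.58, NOP1 of 0.52 and NOP58 of 0.44. Of 10 assembly factors 1 fell, PIH1 (-0.60, adjusted p = 0.0111), and of 11 genes of 3′ end formation 1 fell, SYC1 (-0.64). Of 18 genes of the nuclear exosome and its helper TRAMP, 12 tested Sm and Lsm ring proteins and 16 snRNP proteins, none was called. Of 9 genes of capping, debranching and maturation 1 fell, STO1 (-0.69), which encodes the large subunit of the nuclear cap-binding complex. None of 12 transcription factor genes of snR promoters was called. Neighbouring genes that are no snR genes were also checked because counting ignored strand and most gene models hold no UTRs. Of 13 tested neighbours of the 8 genes that rose, 3 rose, RPL31A beside snR63, RPL14A beside snR87 and RPL12A beside snR80. Of 92 tested neighbours of the members that were not called, 14 rose. Over all genes tested, 4.78% rose. Whether fragments of neighbouring transcripts contribute to these snR counts was not tested.

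In Ino80K929R no member of the 72 tested passed the test against WTIno80 in edgeR, beside 0.0162% of 6161 genes tested, which is INO80 itself. Yet 69 of 72 members were below 0, against 50.5% of all genes, with a median log2 fold change of -0.70 against 0.00 over the genes that are no members. The lowest adjusted p of a member was 0.722. At an unadjusted p under 0.05 there were 26 members and 380 of all genes. DESeq2 called 4 members lower, snR30 (-1.14 ± 0.25 SE, adjusted p = 0.00979), snR37 (-1.16 ± 0.26, 0.00979), snR83 (-1.13 ± 0.25, 0.0106) and snR128 (-1.39 ± 0.33, 0.0233), beside 5 lower and 3 higher of 6706 genes, or 0.0746% and 0.0447%. At an unadjusted p under 0.05 it gave 28 members and 473 of all genes. All 3 libraries of Ino80K929R lay below all 3 of WTIno80 for 31 members, against 8.59% of all genes in that direction, and above them for 0 members, against 7.42%. The 31 comprise 20 of 29 tested H/ACA genes, 10 of 41 tested C/D genes and snR19. The class medians of the log2 fold change were close, at -0.70 for H/ACA and -0.64 for C/D genes. By length, the 31 comprise 25 of 39 tested members of 130 bases or more and 6 of 33 shorter ones. By position they comprise 29 of 51 tested that stand alone, 1 of 8 in introns and 1 of 13 in runs. Whether these classes differ was not tested.

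The values by library show this offset. snR30 had 6704, 5432 and 6752 fragments in WTIno80 and 3497, 3510 and 2813 in Ino80K929R, with no overlap (log2 fold change -1.15 ± 0.22 SE). snR37, an H/ACA guide for the large-subunit rRNA, had 816, 708 and 630 in WTIno80 and 376, 365 and 371 in Ino80K929R (-1.17 ± 0.22 SE). snR83, an H/ACA guide for the small-subunit rRNA, had 733, 631 and 659 in WTIno80 and 299, 379 and 391 in Ino80K929R (-1.13 ± 0.22 SE). In each of these the mutant libraries were all lower. snR128 had 213, 197 and 205 fragments in WTIno80 and 117, 74 and 77 in Ino80K929R (-1.40 ± 0.31 SE), again without overlap. For snR86, the most counted member, WTIno80 had 8198, 8020 and 11066 fragments and Ino80K929R 7156, 6529 and 5485 (-0.70 ± 0.21 SE). snR63 had 1838, 1701 and 1714 in WTIno80 and 1166, 1107 and 1242 in Ino80K929R (-0.79 ± 0.17 SE). All of these had an adjusted p of 0.722 in edgeR and are values, not calls. The U1 RNA snR19 had 283, 209 and 200 fragments in WTIno80 and 145, 144 and 125 in Ino80K929R (-0.96 ± 0.31 SE). The U4 RNA snR14 had 126, 131 and 114 fragments in WTIno80 and 91, 123 and 100 in Ino80K929R, which overlap.

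The extremes of this comparison rest on few fragments. The lowest log2 fold change was that of snR52, a C/D guide, with 16, 13 and 24 fragments in WTIno80 and 0, 4 and 6 in Ino80K929R (-2.57 ± 0.85 SE). Its 10 against 53 fragments give a ratio of 0.172 with an exact 95% counting interval of 0.0779 to 0.341. The next were snR81 at -1.73 ± 0.62 SE and snR66, a C/D guide for the large-subunit rRNA, at -1.60 ± 0.38 SE. At the other end stood snR3 at 0.08, snR24 at 0.04 and snR38 at 0.03, all with groups that overlap. Gene length moved with the result. Among genes that are no members, the median log2 fold change in Ino80K929R was -0.31 for those of up to 300 bases, -0.26 from there to 600 bases and 0.13 above 1200 bases. Among the members, whose median length was 161 bases, the longer ones stood slightly lower, over a different range of lengths. The median was -0.59 for the 33 tested members under 130 bases and -0.72 for the 39 of 130 bases or more. The Spearman correlation of members' log2 fold change with length was -0.20. With a correction for the trend of each library with gene length, the members' median was -0.34 against -0.02 over all genes, and 56 of 72 stayed below 0. Without WTIno80 replicate 1 the members' median was -0.53, and without WTIno80 replicate 2 it was -0.84. None of the genes of the protein lists and no host gene was called in Ino80K929R.

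**Figure D4:**
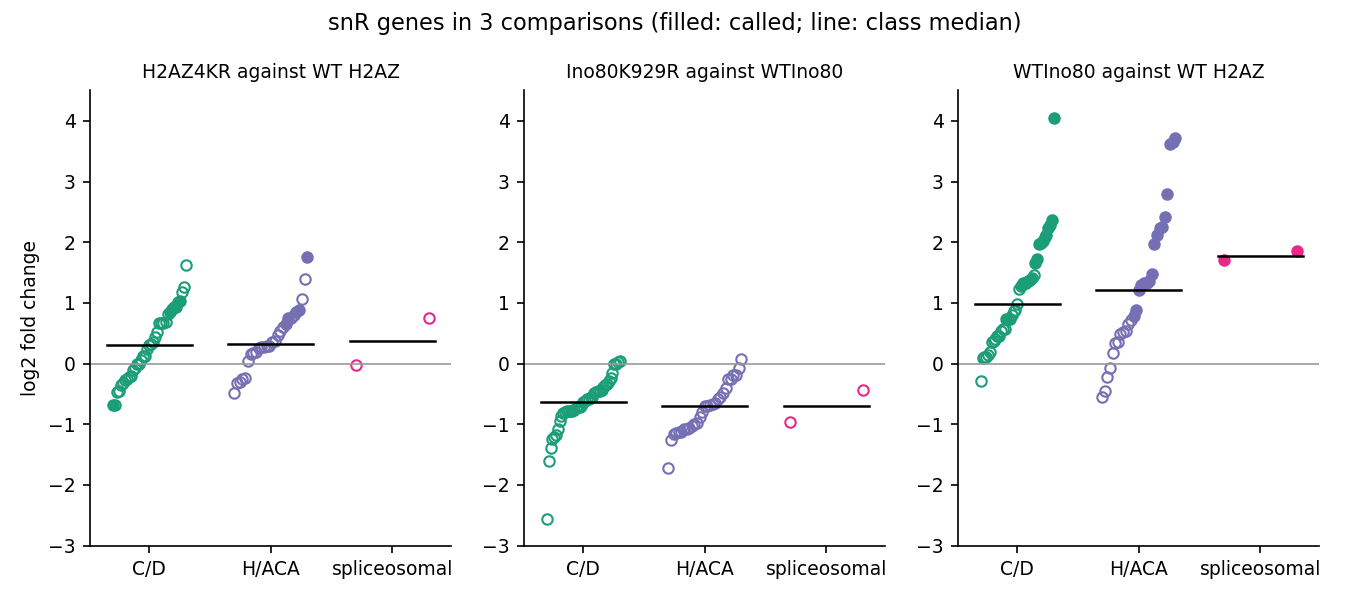
Log2 fold change (y axis) of the tested snR genes by class (x axis) in H2AZ4KR against WT H2AZ, Ino80K929R against WTIno80 and WTIno80 against WT H2AZ, with called genes filled and class medians as lines. In Ino80K929R 69 of 72 points lie below 0 and none is called, and between the wild types 67 of 72 lie above 0 and 36 are called.

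The effects of H2AZ4KR and Ino80K929R on a member were compared directly in 1 fit of all 12 libraries, as the log2 fold change in Ino80K929R minus that in H2AZ4KR, each against its own wild type. Of 72 members tested, 13 were lower and 0 higher, or 18.1% beside 4.25% of 6235 genes in either direction, 1.99% in the lower one and 2.26% in the higher one. They comprise 10 of 29 H/ACA genes and 3 of 41 C/D genes, and 11 of the 13 stand alone. By length, they comprise 11 of 39 members of 130 bases or more and 2 of 33 shorter ones. The class medians were -1.10 for H/ACA and -0.89 for C/D genes, with 27 of 29 and 37 of 41 below 0. Whether the classes differ was not tested. The median difference was -0.95 over the members against 0.02 over all genes, and 66 of 72 were below 0. The difference was -2.02 ± 0.30 SE for snR30 (adjusted p = 0.0101), -2.42 ± 0.38 SE for snR128 (0.0121) and -1.63 ± 0.26 SE for snR63 (0.0123). These 3 were called in each of the 12 fits that left out a library. The other 10 were lost in some of them, and the count fell to 3 or 4 without any 1 WT H2AZ library, without H2AZ4KR replicate 2 or 3, or without Ino80K929R replicate 1 or 2. The largest differences among the members that were not called were -4.45 ± 1.55 SE for snR52, and, in the other direction, 1.28 ± 1.07 SE for snR78, 0.67 ± 0.31 SE for snR41 and 0.40 ± 0.80 SE for snR190. Each table holds its own wild type, so this contrast also carries whatever made the wild types differ in how a mutant effect is read.

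Between the wild types, 36 of 72 members were higher in WTIno80 than in WT H2AZ and 0 lower, or 50% beside 32.7% of 6235 genes in either direction and 17.7% in the higher one. The labels give both as unmutated cells of the same background, and they were counted in separate tables and differ in LEU2; strain, table and any batch cannot be told apart in this comparison. The median log2 difference was 1.22 for the members against 0.03 over all genes, and 67 of 72 were above 0. By class, 17 of 41 C/D genes, 17 of 29 H/ACA genes and both spliceosomal members were higher. By position, 28 of 51 that stand alone, 6 of 13 in runs and 2 of 8 in introns were higher. Of the 36 calls, 27 held in all 12 fits that left out a library.

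The highest fitted difference was that of snR52 (log2 4.04), with 3, 0 and 0 fragments in WT H2AZ and 16, 13 and 24 in WTIno80. Its ratio of fragments was 17.6 with an exact 95% counting interval of 5.69 to 87.8. In the WT H2AZ libraries with a count of 0, up to 3 fragments, or 0.158 and 0.170 CPM, remain possible. Without WT H2AZ replicate 1 the difference was 7.21, and without WT H2AZ replicate 2 it was 3.44, below that of snR80 in the same fit, so the order of the highest genes rests on single libraries. The H/ACA genes snR80, snR10 and snR30 were the next. snR80 was at 0.594 ± 0.131 CPM in WT H2AZ and 7.51 ± 1.09 CPM in WTIno80 (log2 difference 3.72 ± 0.42 SE, adjusted p = 7.4e-05). snR10 was at 0.512 ± 0.196 and 6.04 ± 1.83 CPM (3.65 ± 0.48 SE, adjusted p = 0.000148). snR30 had 554, 476 and 586 fragments in WT H2AZ and 6704, 5432 and 6752 in WTIno80 (3.62 ± 0.23 SE, adjusted p = 2.1e-06). In all 3 of these the groups were far apart. At the other end were snR8 at -0.55 ± 0.39 SE (adjusted p = 0.269), snR44 at -0.45 ± 0.16 SE (0.0401, under the fold limit; -0.65 with the gene length correction, where it was called lower) and snR68 at -0.28 ± 0.37 SE (0.558). snR41 had 22.5 CPM in both wild types. The U2 RNA gene LSR1, no member, was also higher in WTIno80 (2.27, adjusted p = 0.000358), as were the RNA of the signal recognition particle, SCR1 (3.18, adjusted p = 0.000744), and that of RNase P, RPR1 (2.70, adjusted p = 0.000575). Of the 4 core proteins of H/ACA particles all were higher, of those of C/D particles 3 of 4, and of 18 nuclear exosome and TRAMP genes 12 were higher and 0 lower. Of 10 assembly factors 5 were higher, of 12 tested Sm and Lsm proteins 4, of 16 snRNP proteins 2 and of 8 host genes 5. In these lists 0 were lower. Of 11 genes of 3′ end formation 1 was higher and 1 lower. Of 9 genes of capping, debranching and maturation 2 were higher and 1 lower. Of 12 transcription factor genes of snR promoters 1 was higher and 1 lower. Of 60 tested neighbours of the 36 genes, 19 were higher and 2 lower. Of 55 tested neighbours of the members not called, 13 were higher and 8 lower. Over all genes tested, 17.7% were higher and 15% lower. Whether these shares differ was not tested.

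**Figure D5:**
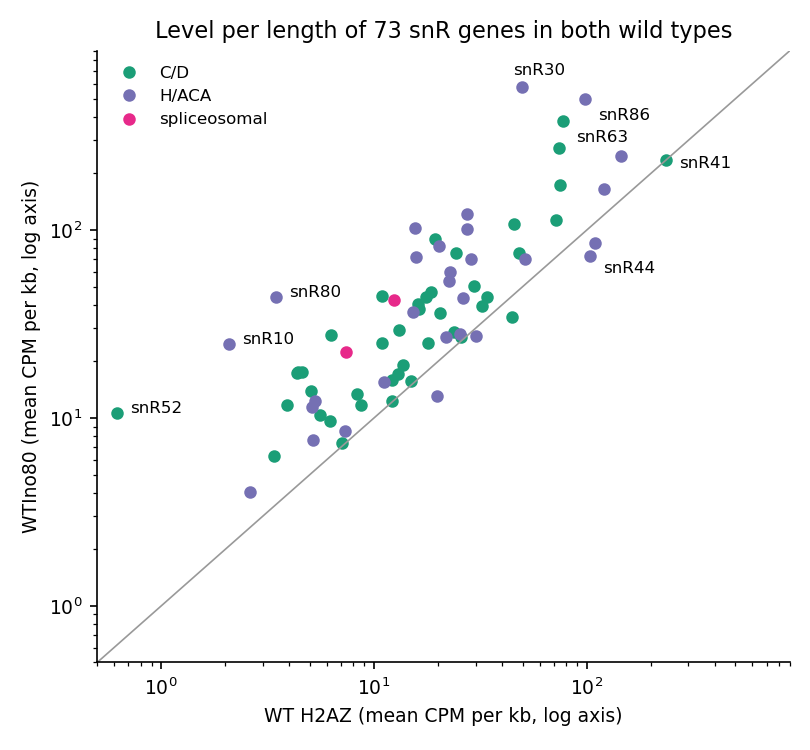
Mean level per length (CPM per kb, log axes) of the 73 snR genes in WT H2AZ (x axis) and WTIno80 (y axis), coloured by class, with the line of equal levels. Most genes lie above the line, snR30, snR80, snR10 and snR52 farthest, while snR41 lies on it and snR44 below it.

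The region before snR30 is shown because snR30 has the most fragments of the 9 members called in H2AZ4KR and kept its call in every alternative fit. It runs from 250 bases before to 50 bases after the gene's start, at chrXII:198534-198833 on the plus strand (R64), with matches to the core of the site of the factor Tbf1 (CCCTAA) and to TATAAA in capitals.
snR30 promoter: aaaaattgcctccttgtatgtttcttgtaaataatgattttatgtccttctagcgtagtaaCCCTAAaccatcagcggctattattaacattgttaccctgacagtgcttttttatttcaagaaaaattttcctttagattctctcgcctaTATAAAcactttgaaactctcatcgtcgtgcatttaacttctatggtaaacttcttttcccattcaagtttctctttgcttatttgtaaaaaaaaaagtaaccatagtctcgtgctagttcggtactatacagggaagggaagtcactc
Over the same window before 57 starts of members outside introns and outside the later places of a run, CCCTAA stood on either strand in 14, or 24.6% against 6.96% of 7126 genes. The core of the Reb1 site, CGGGTAA, stood in 9, or 15.8% against 6.46%, and TATAAA in 46, or 80.7% against 44.6%. The window is set on the annotated start, which for a snR gene is that of the RNA. Most other gene models hold no UTRs, so their windows start from the coding region and cover a different stretch. These shares are therefore not like for like. snR31 and snR5 lie head to head, and the same CCCTAA and the same TATAAA stand in both their windows. These are matches of letters and do not show binding.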

How the data were processed

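The authors deposited 2 tables of unnormalized counts, each with 6 libraries. Each value is a count of fragments per gene, and the authors counted with featureCounts 2.0.1 over exons of the sacCer3 gene models, without regard to strand and without fragments that map to several places or overlap several genes, per the file headers. Reads were aligned with Bowtie 0.12.2, per the submitters' processing notes. Column names give the group only together with the name of the table, so the assignment of columns to groups rests on both; the table's gene lengths give levels per kb.

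All genes that passed filterByExpr (10 counts as its minimum) were fitted in edgeR 4.0.16 under R 4.3.3 by the quasi-likelihood method, after TMM scaling, in the 6 libraries of a table for each mutant and in all 12 for the difference between mutant effects and for the wild types. Every adjusted p is from this test over all genes tested unless DESeq2 (1.42.0) is named. The code was tested on simulated data first. SE of a log2 fold change is its size divided by the square root of F, and CPM are a gene's fragments scaled to a library of 1000000 counted fragments. The members and lists were chosen with earlier results of these data known. Named genes are those called in a mutant comparison, the 3 highest and 3 lowest of each comparison, the spliceosomal genes, intron members with hosts, and the genes of rRNA precursor cutting; protein lists name up to 4 called genes. snR86, snR37 and snR83, neighbours, SCR1 and RPR1, the genes just around the count limit, and members of a list that were not called were named after their values were seen. Alternatives changed the scaling, tool, filter, gene length correction, call rule, count limit, replicate block and libraries. Counting intervals and the limit of 3 fragments for a count of 0 cover counting error only. Gene names of the other genes come from the RefSeq R64 table.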

Additional observations from a re-analysis of the deposited data

Results flagged for a closer look

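For 13 members the effect of Ino80K929R differed from that of H2AZ4KR in the test of the difference itself (edgeR, 12 libraries, adjusted p 0.0101 to 0.0455), with the difference given as the log2 fold change in Ino80K929R minus that in H2AZ4KR. Among the genes of rRNA precursor cutting it was -2.02 for snR30, -2.42 for snR128 and -2.66 for snR10. Among the C/D guides it was -1.63 for snR63 and -2.34 for snR13. Among the H/ACA guides it was -2.73 for snR80, -2.19 for snR189, -1.88 for snR83, -1.76 for snR37, -1.62 for snR82, -1.55 for snR35, -1.54 for snR33 and -1.10 for snR44. Each of the 13 had a log2 fold change above 0 in H2AZ4KR and below 0 in Ino80K929R. Selection by a low difference favours such signs, and 69 of 72 members tested were below 0 in Ino80K929R. None of the 13 was called in Ino80K929R in edgeR. In H2AZ4KR only snR30, snR128, snR63, snR80, snR82 and snR44 of them were called. For snR189, WT H2AZ had 17, 21 and 16 fragments, H2AZ4KR 39, 24 and 39, WTIno80 42, 44 and 41 and Ino80K929R 24, 22 and 20. For snR13 the counts were 9, 38 and 27, then 34, 59 and 64, then 84, 122 and 96, then 60, 52 and 49. For snR35 they were 54, 65 and 49, then 90, 48 and 73, then 107, 164 and 137, then 57, 66 and 95. The wild types differ as well for all of these except snR44, with WTIno80 the higher, and the part of that difference in these results was not tested.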

How the results depend on the processing

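In H2AZ4KR, 9 members were called and the count was 5 in 1 fit of all 12 libraries and 4 to 10 with a library left out; the median log2 fold change of 0.31 was 0.17 under total counts, 0.21 with the gene length correction and 0.25 to 0.47 with a library left out. Scaling by total counts shifted the all-gene median by -0.14 in H2AZ4KR and by 0.18 in the difference, and the members' median relative to all genes stayed at 0.32 and -0.94; over all genes they called 138 higher and 671 lower in H2AZ4KR against 292 and 447. In Ino80K929R, DESeq2 called 4 members against 0, the median of -0.70 was -0.34 with the length correction and -0.84 to -0.53 with a library left out, and the count was 0 in every other fit. Of the difference between the mutant effects, 13 members were called, 20 by DESeq2, 10 under total counts, 10 with the length correction (9 of the 13, and snR41 higher) and 3 to 14 with a library left out; the median of -0.95 was -0.74 under total counts, -0.53 with the length correction and -1.13 to -0.80 with a library left out. Between the wild types, 36 were called, all higher, and 29 to 38 with a library left out; with the length correction 32 were higher and 1, snR44, lower, and without WTIno80 replicate 1, 31 were higher and 1, snR11, lower. The median of 1.22 was 1.01 with the length correction, 1.35 for members with a summed count of at least 600 and 0.83 to 1.29 with a library left out. It is not known whether the replicate numbers pair the libraries. Same-numbered deviations from the group mean correlated at 0.16, 0.21 and -0.11 in the H2AZ table and 0.38, -0.38 and -0.13 in the Ino80 table. Not every library correlated best with its own number. Deviations of 3 libraries from their own mean are not independent, so these correlations cannot decide the question. With the replicate block, 11 members were called in H2AZ4KR, 0 in Ino80K929R, 33 between the wild types and 3 for the difference (snR30, snR63 and snR128). Signs turned for genes that were not called. In H2AZ4KR, snR19 (-0.02) was 0.042 with the replicate block, and with a library left out snR19 ran from -0.31 to 0.24, snR191 from -0.12 to 0.71 and snR38 from -0.68 to 0.89. In Ino80K929R, the length correction gave 0.065 for snR191, 0.14 for snR39 and 0.013 for snR44, the replicate block -0.28 for snR38, and with a library left out snR38 ran from -1.07 to 0.43, snR24 from -0.33 to 0.32 and snR3 from -0.11 to 0.27; snR190 in the difference ran from -0.080 to 0.85. Causes were not tested. At a median of 41 to 88 fragments per member and library, counting error limits single genes, and the snRNA genes snR6, snR7-L and snR7-S could not be tested.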
